A study of Rattus norvegicus with 6 samples.

Results

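Homologous recombination and the Fanconi anemia pathway were examined through 35 genes, chosen by symbol from a list of the pathways' mediators, helicases, nucleases and core subunits, among the 18930 genes of the count table. All 35 had a row, Mre11a under its current symbol Mre11, and all 35 passed the filter on low counts. RNA was sequenced from NRK-52E, an established and genetically unmodified (WT) line of rat kidney epithelial cells. Vehicle alone was given in 3 samples (Control), and the other 3 received 10 mM streptozotocin for 24 h (STZ). STZ is a glucose-linked nitrosourea that methylates DNA. The labels do not say whether replicates were separate cultures, so p-values measure the spread between these samples, which may be technical.

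Homologous recombination repairs a broken DNA end by copying the intact sister chromatid, and therefore acts mainly in S and G2 phase. Nucleases first resect the end to a single strand, BRCA2 and its partners then prepare that strand to invade the sister, and helicases or nucleases later separate the joined molecules. The Fanconi anemia pathway acts when replication meets a crosslinked or otherwise blocked template: a core complex ubiquitinates the FANCD2-FANCI pair, which calls nucleases to unhook the lesion and hands the resulting break to homologous recombination. Methylating agents such as STZ are known to cause breaks at replication forks, which is why these genes are of interest in treated tubular cells.

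Total counts lay between 10430924 and 15191349 per library, and scaling factors (TMM) between 0.988 and 1.02. Levels are given below as counts brought to a common library size with TMM (CPM), which serve for comparison between samples of 1 gene and not between genes, since they are not divided by length. Cdkn1a, a target gene of p53 that encodes the cell cycle inhibitor p21, had 1298 ± 23.0 CPM in STZ against 232 ± 4.19 CPM in Control (SD, n = 3 each), so the STZ libraries stood apart from the Control libraries as labelled. Of the epithelial markers listed, Krt8 had 1149 CPM and Tjp1 612 CPM in Control, but Krt18 had at most 3 reads in any library, Cdh1 had 16 to 35 reads, and Cldn3 and Cldn4 had 0 reads in Control. Of the 8 proximal tubule markers, Ggt1 had 451 to 1220 reads and Aqp1 66 to 167 reads per library, while Lrp2 and Slc34a1 had at most 4 and 2. In such bulk RNA, fewer cells of a cycle phase and less RNA per cell cannot be told apart.

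STZ changed members of this list in both directions and by modest amounts. Genes were called at an adjusted p-value under 0.05. By this rule 8 of the 35 were higher in STZ (22.9%), namely Fancg, Rmi1, Rad51d, Xrcc2, Ube2t, Brca2, Brca1 and Fancd2, and 7 were lower (20%), namely Blm, Rad51c, Fancc, Fancl, Nbn, Fanca and Rbbp8. Over all 11870 genes tested, 25.9% were higher and 25.1% lower by the same rule, so neither share of members exceeded that background. Rises spanned 1.10-fold to 1.73-fold and falls 1.15-fold to 1.51-fold. None of the 35 passed the study's further threshold of an absolute log2 fold change over 1. Of all genes, 3.37% passed it together with the adjusted p-value. The count of members past both was likewise 0 by DESeq2, by limma-voom, and with an unadjusted p under 0.05 in place of the adjusted one. Called with an absolute log2 fold change over 0.5 were 4 members, Fancg, Blm, Rad51c and Fancc, or 11.4% of the list, against 13.0% of all genes by both criteria. Adjusted p-values here and below are Benjamini-Hochberg values over every gene tested, from the quasi-likelihood test of edgeR.

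The median log2 fold change of the 35 members was -0.08, between -0.59 and 0.79, while that of all genes tested was -0.01. Summed over the members, Control libraries had 1182 to 1221 CPM and STZ libraries 1200.1 to 1214 CPM, so the total for these pathways lay within the spread of the Control samples. All STZ samples exceeded all Control samples in 8 members and lay under them in 8, against 28.6% and 27.7% of all genes. These were the called members and Fancb, which was lower in every STZ sample without passing the adjusted p-value. Among the 20 members that did not pass, the 95% interval of the log2 fold change lay inside -0.5 to 0.5 for 18. The wider intervals belonged to Xrcc3 and to Fancf, the member with the fewest reads (14 to 30 per library).

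**Figure D1:**
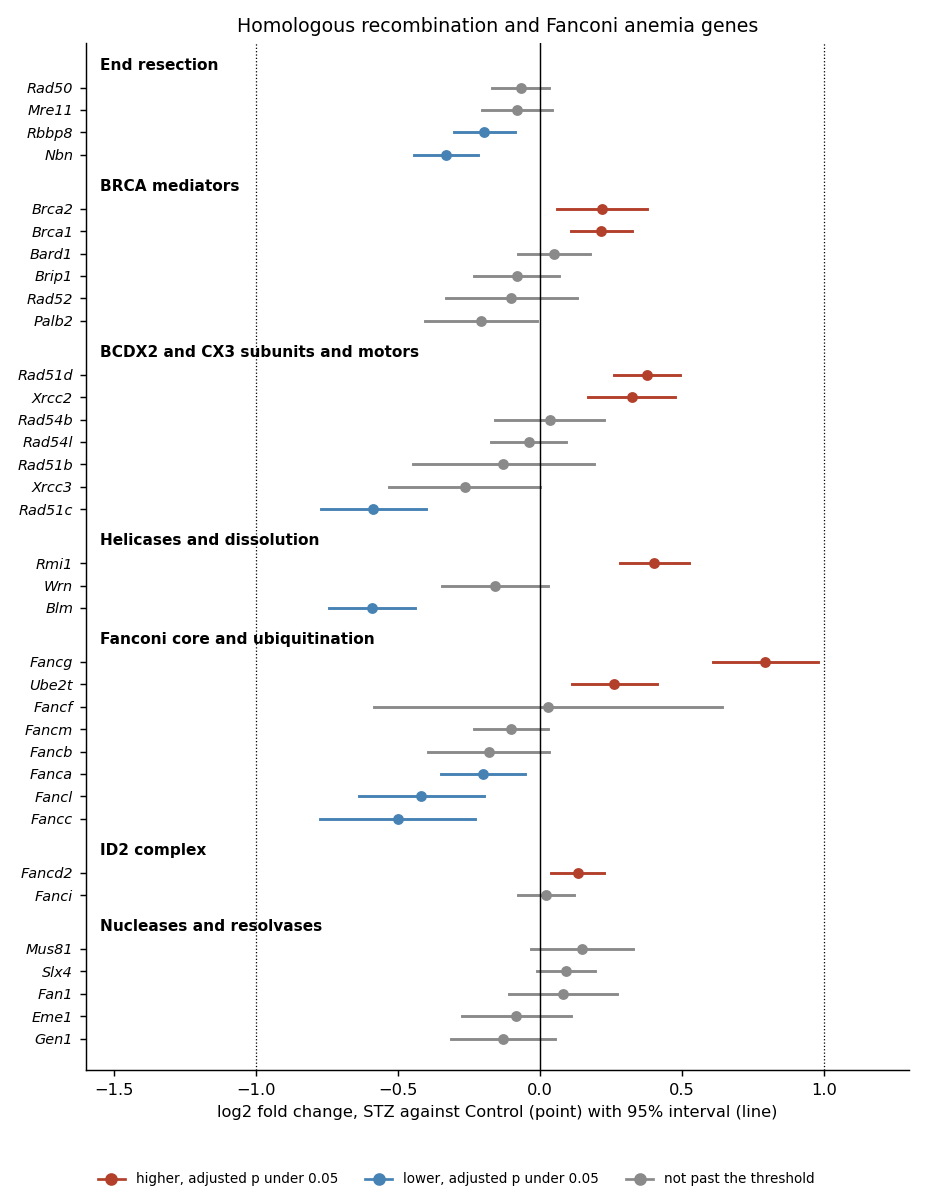
Log2 fold change of each of the 35 members, STZ against Control, with its 95% interval from the edgeR fit, grouped by role (n = 3 samples per group; dotted lines mark the study's fold-change threshold). Rises (red) and falls (blue) appear side by side within the helicase, BCDX2 and CX3 and Fanconi core groups, and no estimate reaches a dotted line.

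Promoter sequence is shown for the members with the largest differences, Fancg, Rad51c and Fancc, and for Rad51d, which sits in 1 complex with Rad51c and moved the other way. Blm, the remaining member with an absolute log2 fold change over 0.5, had no promoter entry that could be used. The bases are the 250 before the annotated start, 5′ to 3′ on the gene's strand, from RefSeq on the GRCr8 build, in lower case, with capitals for a match to an E2F motif (TTTCCCGC, TTTCGCGC, TTTGCCGC or TTTGGCGC), to the CHR motif (TTTGAA) or to CCAAT on either strand. Within these bases Fancg and Rad51c held no match.
Fancg (rose; chr5:62035788-62036037, minus strand): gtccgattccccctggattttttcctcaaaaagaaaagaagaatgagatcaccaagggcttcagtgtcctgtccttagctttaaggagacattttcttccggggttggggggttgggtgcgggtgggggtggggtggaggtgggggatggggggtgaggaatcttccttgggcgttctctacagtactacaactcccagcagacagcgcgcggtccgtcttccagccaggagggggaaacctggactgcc
Rad51d (rose; chr10:68321903-68322152, minus strand): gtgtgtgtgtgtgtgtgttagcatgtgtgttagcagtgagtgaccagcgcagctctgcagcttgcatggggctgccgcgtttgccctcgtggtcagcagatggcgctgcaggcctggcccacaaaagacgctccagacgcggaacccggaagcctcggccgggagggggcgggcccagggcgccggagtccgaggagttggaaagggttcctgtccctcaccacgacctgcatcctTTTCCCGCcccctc
Rad51c (fell; chr10:72728465-72728714, minus strand): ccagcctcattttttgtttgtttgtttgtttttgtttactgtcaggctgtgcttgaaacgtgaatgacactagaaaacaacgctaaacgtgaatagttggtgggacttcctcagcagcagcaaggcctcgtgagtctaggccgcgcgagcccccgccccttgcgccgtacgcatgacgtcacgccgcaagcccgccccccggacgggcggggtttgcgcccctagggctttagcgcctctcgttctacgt
Fancc (fell; chr17:1686839-1687088, plus strand): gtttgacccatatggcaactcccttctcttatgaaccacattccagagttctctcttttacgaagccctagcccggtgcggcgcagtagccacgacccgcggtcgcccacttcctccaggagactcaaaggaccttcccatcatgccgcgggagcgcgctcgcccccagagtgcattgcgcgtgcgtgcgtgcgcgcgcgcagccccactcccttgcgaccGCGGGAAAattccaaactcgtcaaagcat

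E2F sites are bound by factors that regulate S-phase genes, and CHR sites by complexes that regulate cell cycle genes. Searched from 250 bases before to 50 after the start, 5 of the 30 member promoters found held an E2F motif (16.7%), against 4.45% of 8112 promoters of genes tested. They were those of Rad51d and Fancd2, which rose, of Fancc and Fancl, which fell, and of Bard1, which did not pass. The CHR motif occurred in 6 member promoters (20%) against 11.3% of all, those of Rad51c and Rbbp8, which fell, and of Bard1, Eme1, Fanci and Rad51b, which did not pass. Counted from the start, these CHR matches began at -240 in Fanci, -239 and -189 in Bard1 and -221 in Rbbp8. Those of Rad51b, Rad51c and Eme1 began at 9, 25 and 32. CCAAT occurred in 11 (36.7%) against 38.6%. The E2F match thus occurred on both sides of the comparison, within 42 bases of the start in the 4 promoters of called members, and Fancg held none of the 3 motifs in this window. Matches of different motifs did not overlap, and a match of letters is no proof of binding. Blm, Nbn, Rad54b, Wrn and Xrcc2 had no promoter entry that could be used.

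Of the 4 end resection genes, Nbn and Rbbp8 fell, and Mre11 and Rad50 did not pass. Over all genes tested, 25.9% were higher and 25.1% lower. The groups by role, here and below, hold at most 8 members and are too small to set against these shares. MRE11, RAD50 and NBN form the complex that senses broken ends and starts their resection, and RBBP8 (CtIP) stimulates its nuclease. Nbn had 62.0, 58.6 and 60.6 CPM in Control replicates 1, 2 and 3 and 47.7, 48.8 and 47.6 CPM in STZ replicates 1, 2 and 3. Every STZ sample lay under every Control sample, with a log2 fold change of -0.33 ± 0.06 (SE, adjusted p = 3.59e-06 by edgeR). Rbbp8 had 67.0, 68.5 and 69.9 CPM in Control and 61.3, 60.6 and 57.6 CPM in STZ, again without overlap, and a log2 fold change of -0.20 ± 0.05 (SE, adjusted p = 0.00190 by edgeR). The partners Mre11 and Rad50 had log2 fold changes of -0.08 and -0.07 with 95% intervals of -0.20 to 0.04 and -0.17 to 0.03, and their groups overlapped.

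Of the 6 BRCA mediators, Brca1 and Brca2 rose slightly and the other 4 did not pass. BRCA1, a ubiquitin ligase with BARD1, promotes resection, PALB2 joins it to BRCA2, BRIP1 is its helicase partner, and RAD52 anneals single strands. Brca1 had 64.5, 58.0 and 63.9 CPM in Control replicates 1, 2 and 3 and 72.2, 71.5 and 72.7 CPM in STZ replicates 1, 2 and 3. No sample overlapped, and the log2 fold change was 0.22 ± 0.05 (SE, adjusted p = 7.77e-04 by edgeR). Brca2, whose product acts on the resected single strand, had 23.9, 23.3 and 27.8 CPM in Control and 28.3, 28.0 and 31.0 CPM in STZ, and the highest Control sample and the lowest STZ sample nearly met. Its log2 fold change was 0.22 ± 0.08 (SE, adjusted p = 0.0188 by edgeR). This call was lost without Control replicate 1, Control replicate 2 or STZ replicate 3, where the log2 fold change was 0.18 (adjusted p = 0.0742 by edgeR), 0.17 (adjusted p = 0.118 by edgeR) and 0.17 (adjusted p = 0.120 by edgeR), and by DESeq2, 0.22 (adjusted p = 0.0707).

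Bard1, Brip1 and Rad52 had log2 fold changes of 0.05, -0.08 and -0.10, with groups that overlapped. Palb2 had 15.8, 18.9 and 20.2 CPM in Control and 15.8, 14.7 and 17.1 CPM in STZ and a log2 fold change of -0.21 (adjusted p = 0.0741 by edgeR). It spread most in Control, where replicate 1 lay within the STZ values, and without that replicate the log2 fold change was -0.30 (adjusted p = 0.0135 by edgeR). With libraries scaled by their size alone, without TMM factors, it also passed, at -0.24 (adjusted p = 0.0364 by edgeR).

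Of the genes for BCDX2 and CX3 subunits, Rad51d and Xrcc2 rose, Rad51c fell, and Rad51b and Xrcc3 did not pass. RAD51B, RAD51C, RAD51D and XRCC2 form a complex (BCDX2) that assists strand exchange, and RAD51C also pairs with XRCC3 (CX3). Rad51c had 19.7, 22.1 and 22.7 CPM in Control replicates 1, 2 and 3 and 13.9, 15.2 and 14.1 CPM in STZ replicates 1, 2 and 3. The groups were well separated, with a log2 fold change of -0.59 ± 0.09 (SE, adjusted p = 8.88e-07 by edgeR). Rad51d had 43.9, 42.8 and 42.6 CPM in Control and 57.7, 55.3 and 54.8 CPM in STZ and a log2 fold change of 0.38 ± 0.06 (SE, adjusted p = 6.40e-07 by edgeR), so that it rose in every STZ sample while its direct partner fell. Xrcc2, which binds RAD51D in the complex, had 23.5, 25.1 and 26.5 CPM in Control and 32.1, 33.2 and 29.2 CPM in STZ and also rose without overlap, with a log2 fold change of 0.32 ± 0.08 (SE, adjusted p = 4.19e-04 by edgeR).

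The remaining subunits did not pass. Rad51b had 59 to 79 reads per library and a log2 fold change of -0.13 (95% interval -0.45 to 0.19). Xrcc3 had 11.4, 9.09 and 11.6 CPM in Control and 8.21, 11.0 and 7.87 CPM in STZ, where STZ replicate 2 lay within the Control range, and a log2 fold change of -0.27 (adjusted p = 0.0910 by edgeR). Without STZ replicate 2 it was -0.42 (adjusted p = 0.0153 by edgeR), and without Control replicate 2 it was -0.37 (adjusted p = 0.0353 by edgeR), so a single library decided on which side of the threshold it lay. The motor proteins RAD54 and RAD54B act during strand exchange. Their genes Rad54l and Rad54b had log2 fold changes of -0.04 and 0.03, with 95% intervals of -0.17 to 0.09 and -0.16 to 0.23; that of Rad54b turned to -0.01 without Control replicate 1.

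Blm and Rmi1 encode parts of 1 complex and moved in opposite directions. BLM is a RecQ helicase that, with topoisomerase IIIα, RMI1 and RMI2, dissolves joined DNA molecules without crossing over, and loss of BLM causes Bloom syndrome. Blm had 34.6, 37.6 and 35.2 CPM in Control replicates 1, 2 and 3 and 22.7, 22.5 and 25.8 CPM in STZ replicates 1, 2 and 3. No other member fell further, with a log2 fold change of -0.59 ± 0.07 (SE, adjusted p = 8.32e-09 by edgeR), or 1.51-fold lower. Rmi1 had 42.3, 39.4 and 42.3 CPM in Control and 56.8, 52.4 and 54.4 CPM in STZ and was higher in every STZ sample, with a log2 fold change of 0.40 ± 0.06 (SE, adjusted p = 3.49e-07 by edgeR). Wrn, the RecQ helicase lost in Werner syndrome, had a log2 fold change of -0.16 (95% interval -0.35 to 0.03) and groups that overlapped.

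The Fanconi core complex held the largest rise of the whole list and also 3 of its 7 falls. FANCA and FANCG form 1 module of this ligase, FANCB and FANCL its catalytic module, and FANCC and FANCF a further one, while FANCM recruits the complex to DNA and UBE2T supplies the ubiquitin. Fancg had 12.5, 12.7 and 13.4 CPM in Control replicates 1, 2 and 3 and 22.6, 22.1 and 22.5 CPM in STZ replicates 1, 2 and 3. STZ samples lay far above Control, with a log2 fold change of 0.79 ± 0.09 (SE, adjusted p = 1.02e-09 by edgeR), or 1.73-fold higher. Ube2t had 26.8, 27.2 and 27.6 CPM in Control and 34.5, 29.6 and 33.4 CPM in STZ, also without overlap, and a log2 fold change of 0.26 ± 0.07 (SE, adjusted p = 0.00273 by edgeR).

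Fancc had 10.4, 9.09 and 9.75 CPM in Control and 7.27, 7.56 and 5.94 CPM in STZ, with a log2 fold change of -0.50 ± 0.13 (SE, adjusted p = 0.00180 by edgeR). It was among the members with few reads, 87 to 125 per library, and its groups did not overlap. Fancl, the ubiquitin ligase subunit itself, had 15.7, 16.6 and 13.7 CPM in Control and 10.8, 12.9 and 10.8 CPM in STZ and a log2 fold change of -0.42 ± 0.11 (SE, adjusted p = 0.00131 by edgeR). Fanca, the partner of Fancg, had 31.5, 28.9 and 32.8 CPM in Control and 27.0, 26.8 and 27.3 CPM in STZ, with a log2 fold change of -0.20 ± 0.07 (SE, adjusted p = 0.0199 by edgeR). The STZ samples were close to each other and just under the lowest Control sample. This call was lost without Control replicate 3, -0.16 (adjusted p = 0.111 by edgeR), without STZ replicate 1, -0.20 (adjusted p = 0.0506 by edgeR), and by DESeq2, -0.20 (adjusted p = 0.0759).

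Fancb and Fancm had log2 fold changes of -0.18 and -0.10 with 95% intervals of -0.39 to 0.03 and -0.23 to 0.03. For Fancf, a small adaptor subunit, the interval was -0.58 to 0.64, too wide at 14 to 30 reads to give a direction, and its estimate of 0.03 turned to -0.20 without STZ replicate 1 and -0.23 without Control replicate 3.

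The substrate of the core complex changed little. Fancd2 had 91.4, 93.4 and 95.6 CPM in Control and 105, 98.6 and 103 CPM in STZ, a log2 fold change of 0.13 (adjusted p = 0.0170 by edgeR), the smallest called difference of the list. The groups did not overlap, but the call was lost without Control replicate 1, 0.12 (adjusted p = 0.0682 by edgeR), without STZ replicate 1, 0.12 (adjusted p = 0.0736 by edgeR), without STZ replicate 3, 0.13 (adjusted p = 0.0507 by edgeR), and with scaling by library size only, 0.10 (adjusted p = 0.0747 by edgeR). Fanci, its clamp partner, had a log2 fold change of 0.02 (95% interval -0.08 to 0.12), which turned to -0.01 under library size only.

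None of the 5 nucleases passed, a group too small to set against the 25.9% higher and 25.1% lower of all genes. SLX4 is the scaffold that holds structure-specific nucleases, MUS81 with EME1 and GEN1 cut branched or four-way junctions, and FAN1 is a nuclease recruited by ubiquitinated FANCD2. Log2 fold changes were 0.09 for Slx4, 0.15 for Mus81, -0.08 for Eme1, -0.13 for Gen1 and 0.08 for Fan1. Their 95% intervals lay between -0.31 and 0.33. Groups overlapped in each, and the estimate for Eme1 turned to 0.01 without Control replicate 3.

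**Figure D2:**
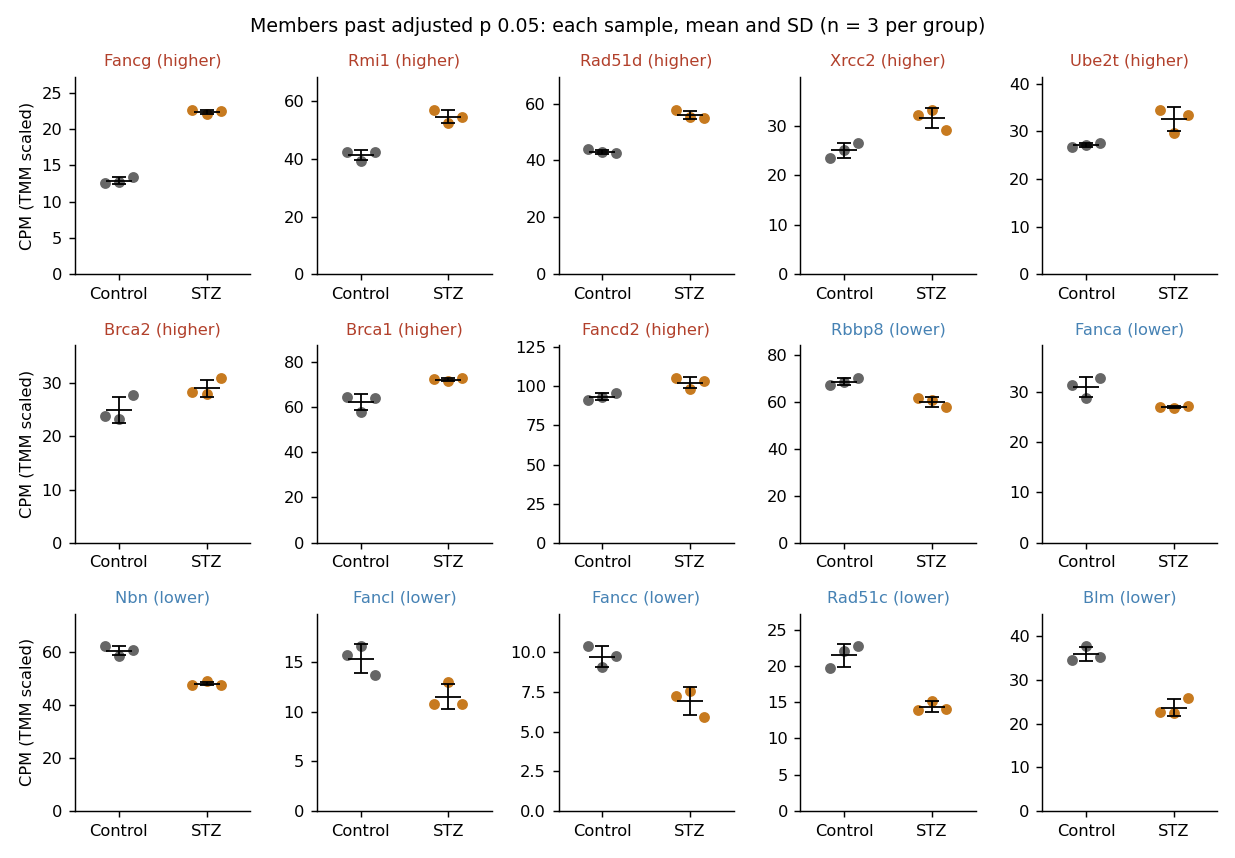
CPM of the 15 members with an adjusted p-value under 0.05 in each Control and STZ sample (points), with the mean and SD (n = 3 per group; every axis starts at 0). Fancg, Blm and Rad51c show wide gaps between the groups, and for Brca2 and Fancd2 the nearest samples of the groups almost touch.

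Because partners moved apart, their reads were also compared within each library, where no scaling between libraries enters. The 6 pairs were picked with the values in view, so the ratios are a description. They are not divided by gene length, so that only their change between samples has a meaning. Reads of Rad51d per read of Rad51c were 2.23, 1.94 and 1.88 in the Control libraries and 4.16, 3.64 and 3.90 in the STZ libraries. The mean ratio was 3.90 ± 0.259 against 2.01 ± 0.189 (SD, n = 3 each), and the groups were far apart. Reads of Rmi1 per read of Blm were 1.22, 1.05 and 1.20 in the Control libraries and 2.51, 2.33 and 2.11 in the STZ libraries, a mean of 2.31 ± 0.199 against 1.16 ± 0.0963 (SD, n = 3 each). Reads of Fancg per read of Fanca were 0.398, 0.440 and 0.410 in the Control libraries and 0.836, 0.822 and 0.824 in the STZ libraries, a mean of 0.827 ± 0.00759 against 0.416 ± 0.0218 (SD, n = 3 each). The ratio of the means was 1.93 for the first of these pairs and 1.99 for the third.

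The other 3 pairs shifted less. The ratio of Brca1 to Bard1 averaged 1.70 ± 0.0224 against 1.52 ± 0.101 (SD, n = 3 each), and that of Fancd2 to Fanci averaged 1.28 ± 0.0393 against 1.19 ± 0.0304 (SD, n = 3 each), both without overlap of the groups. The ratio of Mus81 to Eme1 averaged 1.15 ± 0.210 against 0.969 ± 0.125 (SD, n = 3 each), and STZ replicate 3 lay within the Control range.

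**Figure D3:**
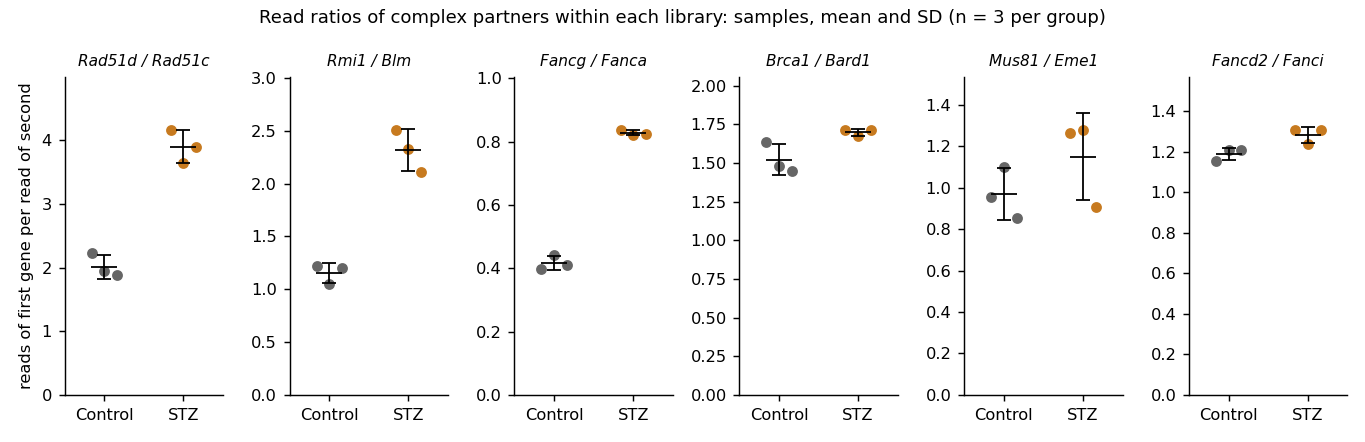
Reads of the first gene per read of the second in each library for 6 pairs of complex partners (points), with the mean and SD (n = 3 per group; axes start at 0, no correction for gene length). Rad51d to Rad51c, Rmi1 to Blm and Fancg to Fanca are higher in all 3 STZ libraries, with a ratio of the means of 1.93 for the first, whereas the STZ and Control points of Mus81 to Eme1 overlap.

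Among other genes of the pathways more were lower than higher. Of 42 further homologous recombination and Fanconi genes listed, 38 were tested, with a median log2 fold change of -0.05. In all, 5 were higher (13.2%) and 13 lower (34.2%), against 25.9% and 25.1% of all genes. Of these, Usp1 had the smallest p-value. It encodes the enzyme that removes ubiquitin from FANCD2 and FANCI, and it had 134, 135 and 137 CPM in Control and 85.5, 80.4 and 85.1 CPM in STZ, a log2 fold change of -0.69 (adjusted p = 1.01e-16 by edgeR). Sfr1, whose protein assists strand exchange, and Faap100, which encodes a scaffold of the catalytic core module with FANCB and FANCL, had log2 fold changes of -0.61 and -0.56 (adjusted p = 8.94e-14 and 2.49e-06 by edgeR). Rmi2, named after its values were seen, fell with Blm rather than rising with Rmi1, with a log2 fold change of -0.42 (adjusted p = 0.00124 by edgeR). Top3a, the gene of topoisomerase IIIα, was also named after its values were seen. It did not pass, at 0.09 (adjusted p = 0.334 by edgeR), and its groups overlapped. Dmc1, the meiotic recombinase, had at most 2 reads and was not tested.

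End joining, the competing route that ligates broken ends directly, is shown beside these genes. Of 17 end joining genes tested, 3 were higher (17.6%) and 9 lower (52.9%), against 25.9% and 25.1% of all genes. Their median log2 fold change was -0.27. The 3 smallest p-values were those of Lig4, the ligase of this route, with a log2 fold change of 1.15 ± 0.06 (SE, adjusted p = 4.55e-20 by edgeR), of Rif1, which restrains resection, at -0.51, and of Lig3, the ligase of alternative end joining, at -0.33. Of the 17, Lig4 alone also passed the fold-change threshold. Both thresholds were passed by 3.37% of all genes and by none of the 35 homologous recombination and Fanconi members. Whether the lists differ from each other was not tested.

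Many of these genes are known to be expressed with the cell cycle, and levels of cell cycle genes are given beside them. S-phase genes summed to 3267 to 3527 CPM in Control and 3025 to 3050.4 CPM in STZ, with a median log2 fold change of -0.12. Of 27, 13 were lower (48.1%) and 2 higher (7.41%), against 25.1% and 25.9% of all genes. G2 and mitosis genes summed to 4122 to 4312 CPM in Control and 3428 to 3486 CPM in STZ, with 15 of 20 lower and 3 higher and a median of -0.24. The smallest p-values were those of Pcna, Tyms and Mcm6 in the first list, with log2 fold changes of -0.73, 0.52 and -0.50, and of Mki67, Bub1b and Cdc20 in the second, with -0.67, -0.56 and -0.49. How far these shifts bear on the falls of Blm, Rad51c, Fancc and Fancl was not tested.

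Cell type markers also differed between the groups. Summed epithelial markers were 1706 to 1792 CPM in Control and 2285 to 2291 CPM in STZ, carried by Krt8 and Tjp1, at log2 fold changes of 0.48 and 0.15. Cdh1, the epithelial cadherin, was at -0.69. Summed fibroblast markers were 2004 to 2205 and 1893 to 1926 CPM, carried by Vim at -0.12, with Col3a1 at -1.35 and Pdgfrb at -0.33. Leukocyte and endothelial markers summed to 103 to 105 and 122 to 130 CPM, nearly all of it Cd14, at a log2 fold change of 0.26. Ptprc, Pecam1 and Cdh5 had at most 2 reads in any library. Cd68 had a log2 fold change of 0.40 and did not pass (adjusted p = 0.279 by edgeR). Proximal tubule markers summed to 59.7 to 62.7 and 77.7 to 89.4 CPM, with Ggt1 at 0.73, Aqp1 at -1.25 and Anpep at -0.09. Only 3 of 6 epithelial, 3 of 8 proximal tubule, 4 of 7 fibroblast and 2 of 8 leukocyte and endothelial markers were measured well enough to be tested. Their part in the members' values was not tested.

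**Figure D4:**
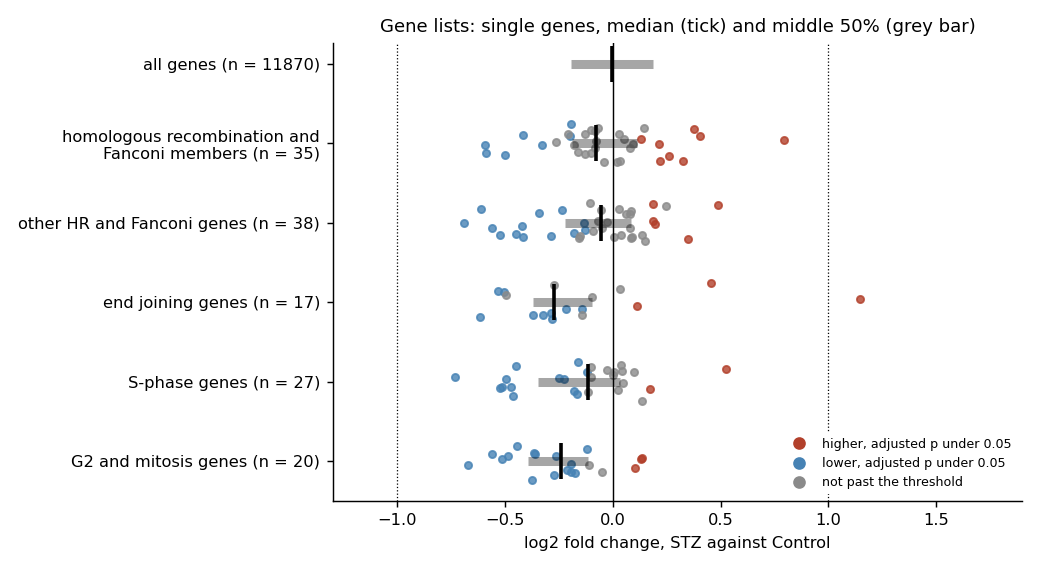
Log2 fold changes, STZ against Control, of the genes in each list (points, coloured by call), with the median (tick) and the middle 50% (grey bar), beside the median and middle 50% of all 11870 genes tested (dotted lines mark the fold-change threshold). Medians are -0.01 for all genes, -0.08 for the 35 members and -0.05 for the other homologous recombination and Fanconi genes. Those of the S-phase, the G2 and mitosis and the end joining lists are -0.12, -0.24 and -0.27.

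Neighbouring genes can share reads with a member, as it is not stated whether reads were counted by strand. In the GRCr8 annotation, in which all 35 members were found, 14 overlapped a protein-coding gene. Overlap here means that the spans from gene start to gene end meet, on either strand. The genes need not share an exon. Among called members, Rmi1 overlapped Hnrnpk, an abundant RNA-binding protein gene whose log2 fold change was -0.03, Fancc overlapped Aopep at -0.14, Fancl overlapped Vrk2 at 0.02, Fanca overlapped Zfp276 at 0.12 and Brca2 overlapped N4bp2l1 at -0.23. None of these 5 neighbours passed the adjusted p-value, and the neighbour of Fancd2, Fancd2os, had too few reads to be tested. Some neighbours of members not called did pass. Fanci overlapped Polg at -0.29, Eme1 overlapped Mrpl27 at -0.25, Rad52 overlapped Wnk1 at 0.23 and Xrcc3 overlapped Klc1 at 0.12. Ankrd49, Lrrc41 and Lrrc59, which overlapped Mre11, Rad54l and Eme1, did not pass. Whether reads were shared was not tested. Of the 21 members that overlapped no protein-coding gene, 5 were higher and 4 lower, among them Fancg, Rad51d, Blm and Rad51c. Of all genes tested, 25.9% were higher and 25.1% lower.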

How the data were processed

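RNA of NRK-52E cells, 3 vehicle-treated (Control) and 3 STZ-treated samples, was sequenced by the authors as 100-bp single-end reads from stranded mRNA libraries. The authors aligned them with STAR 2.7.10a to the Rnor6 build and deposited featureCounts counts of uniquely mapped reads per gene, not normalized. Columns were matched to samples by title.

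These counts were scaled by TMM, filtered by filterByExpr at its defaults (11870 of 18930 genes kept) and tested over all genes with the quasi-likelihood model of edgeR 4.0.16 (R 4.3.3) and Benjamini-Hochberg adjustment. A gene was called at an adjusted p under 0.05. The study's absolute log2 fold change over 1 was applied as a further threshold. A standard error (SE) is the size of the log2 fold change over the root of its F statistic, and 95% intervals use it with the test's degrees of freedom. With 3 samples against 3, an exact permutation test of 1 gene cannot go below 0.1, so none is given. Total counts of 10430924 to 15191349 set the precision for genes with few reads.

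Every member is named. Those with an adjusted p under 0.05 are given with their log2 fold change, those with an absolute log2 fold change over 0.5 sample by sample, and of each other list the 3 genes with the smallest p, plus Cdkn1a. The text says where another gene was picked with its values in view. Members and lists were chosen with earlier results of these data known. E2f1, Epcam, Krt19, Dcn, Mcm9, Cenps and Cenpx were not analysed here, and 1 listed gene is not reported here.

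Alternatives were 3 scalings, 2 filters, DESeq2 1.42.0, limma-voom (limma 3.58.1), a block for the replicate number, and leaving out each sample. The steps were tested on simulated data. No libraries looked deposited in duplicate (chi-square per degree of freedom between samples of 1 group at least 1.88). Promoter sequences and gene neighbours came from RefSeq (GRCr8), a later build than the authors' one, by symbol. Usable entries were found for 30 of 35 member promoters, and 533 symbols with several entries were left out.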

Additional observations from a re-analysis of the deposited data

How the results depend on the processing

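The counts of 8 members higher and 7 lower stayed within 1.5 times under every alternative run (with library size only 7 and 8, by DESeq2 7 and 6, with 1 sample left out 6 to 8 and 6 to 8), and the count past both thresholds was 0 in all of them. The 5 higher and 13 lower genes among the other homologous recombination and Fanconi genes also stayed within 1.5 times. The members' median log2 fold change, -0.08, was -0.11 under library size only, where the median of all genes was -0.04 against -0.01, so that the difference between these medians was -0.07 in both. With 1 sample left out it was -0.086 (without STZ replicate 3) to -0.048 (without STZ replicate 2). Of 490 refits of single members, 468 kept direction and side of the threshold, 11 lost a call, 4 gained 1 and 7 changed sign, and 26 of 35 members kept both in every refit. Signs changed only for members that were not called: Fancf (-0.0041) and Fanci (-0.013) under library size only, and with 1 sample left out Fancf (-0.23 to 0.31), Rad54b (-0.0088 to 0.061) and Eme1 (-0.19 to 0.0070). The cause was not tested. Control and STZ samples share replicate numbers. Deviations of same-numbered samples from their group means correlated by 0.0356, -0.0298 and 0.0804 over 11297 genes. Differently numbered samples were not compared, so these values cannot decide whether samples were paired. In the fit with the replicate block 8 members were higher and 7 lower, the median was -0.08, and no call of a member changed. Depth limits Fancf, with 14 to 30 reads per library, most.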
